A study of Homo sapiens with 6 samples.

Results

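The ZNF genes of chromosome 19 are the protein-coding genes of that chromosome whose symbol is ZNF followed by a number. The deposited table of raw counts listed 240 of them among its 60483 genes, and 153 had at least 10 counts in 3 or more of the 6 libraries. These 153 are called the kept members here. The study sequenced RNA from the ovarian carcinoma line A2780 (WT) and from A2780 CDK12 KO cells, in 3 libraries each. The KO cells were 1 clone, made with a CRISPR/Cas9 plasmid against exon 1 of CDK12, the kinase that phosphorylates RNA polymerase II during elongation. A first transfection and isolation of single clones gave a heterozygous clone. This clone went through a second round of transfection and selection, which gave the homozygous KO clone. Both lines were grown in RPMI medium with fetal bovine serum and no drug, so the groups share everything in the labels but the CDK12 genotype and the cloning. A difference between the groups is a difference between this clone and the parental cells.

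ZNF proteins bind DNA through tandem C2H2 zinc fingers, in which a pair of cysteines and a pair of histidines hold a zinc ion. Many of those encoded on chromosome 19 also carry a KRAB domain, which recruits TRIM28 and, through it, histone methylation by SETDB1 and HP1 proteins. Their genes arose by repeated local duplication and lie in clusters, and many of their known targets are retrotransposons. Clusters are named here after a gene in them. A cluster was a run of at least 5 listed genes with no gap over 1 Mb between the end of a gene and the next start.

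Total counts were 11098400 to 30899045 per library, and 3 counts, taken as the floor, equalled at most 0.270 CPM, the depth-scaled count used throughout. The libraries of a group correlated at 0.993 to 0.996 (Pearson, log2 CPM across genes) and those of different groups at 0.915 to 0.921. CDK12 itself had 2831, 3759 and 1294 counts in WT and 2432, 2504 and 1818 in KO, and fell by 0.23 on the log2 scale (edgeR adjusted p = 0.00082). A count over the whole gene does not check an edit in exon 1. Of 8 epithelial and ovarian markers, 3 were tested: KRT18 rose from 59.9 ± 1.96 to 103 ± 2.73 CPM and KRT8 rose at a lower level (0.56), while EPCAM fell (-0.53, edgeR adjusted p = 0.0119). KRT7 and MUC16 had at most 3 counts in every library, and PAX8, WT1 and KRT19 were too low to be tested. The summed level of these 8, most of it KRT18, was 68.5 to 74.0 CPM in WT and 114 to 119 CPM in KO. The sum of 7 fibroblast and matrix genes was 11063 to 11427 CPM in WT and 8529 to 8808 CPM in KO, and 5 of the 7 passed both thresholds as lower in KO. Among blood cell markers, PTPRC, CD3E and HBB had at most 3 counts in every library and LYZ at most 6, while CD14 was called higher at a low level, with 12, 7 and 5 counts in WT and 12, 26 and 12 in KO (1.02, edgeR adjusted p = 0.0156). The part of these markers in the results below was not tested. The files hold no measure of chromosome copy number, so copies of a gene and expression per copy cannot be told apart here, and the study's karyotyping was not analysed here.

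In the KO clone, a small number of zinc finger genes fell to no or almost no reads. Others were higher, lower or not clearly changed. A gene was called where edgeR gave an adjusted p under 0.05 and the log2 fold change passed 1 or -1, the thresholds in the study's methods. Of the 153 kept members, 17 (11.1%) were called lower and 1 (0.654%) was called higher. Over all 16198 genes tested, 7.73% were called lower and 8.3% higher. The filter bears on the first count, since 8 of the 17 were kept through the WT libraries alone and had to be lower in KO. Among the 145 members kept otherwise, 9 (6.21%) were called lower, beside 6.01% of all genes taken in the same way. With at least 10 counts in every library these shares were 7 of 136 (5.15%) and 5.28%. With these filters the called-lower share was close to that of all genes. The called-higher share was below that of all genes without these filters (0.654% beside 8.3%), and was not compared with them.

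By the adjusted p alone, 57 kept members were higher in KO (37.3%, beside 31.9% of all genes) and 41 were lower (26.8%, beside 32.0%), and 55 did not pass. All members are protein-coding, while all genes tested include other types. Of the 12744 protein-coding genes tested, 32.5% were higher and 36.6% lower, with a median log2 fold change of -0.02. At both thresholds 6.98% of them were called higher and 8.06% lower. All 3 KO libraries lay above all 3 WT libraries for 63 members (41.2%, beside 32.8% of all genes) and below them for 40 (26.1%, beside 33.5%). The median log2 fold change of the kept members was 0.07, with an interquartile range of -0.29 to 0.35, and that of all genes was 0.0004. The median of the kept members was also 0.07 with genes that had no KO reads placed at their bound. These bounds lie below the median, so that placing them there could not move it. The increases were small: 34 of the 57 were under 0.5 on the log2 scale, and after ZNF540 the next highest value was 0.92 for ZNF582. Summed over the 153 members, the WT libraries averaged 2597 ± 3.47 CPM and the KO libraries 2579 ± 38.5 CPM (SD, n = 3), and the groups overlapped.

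**Figure D1:**
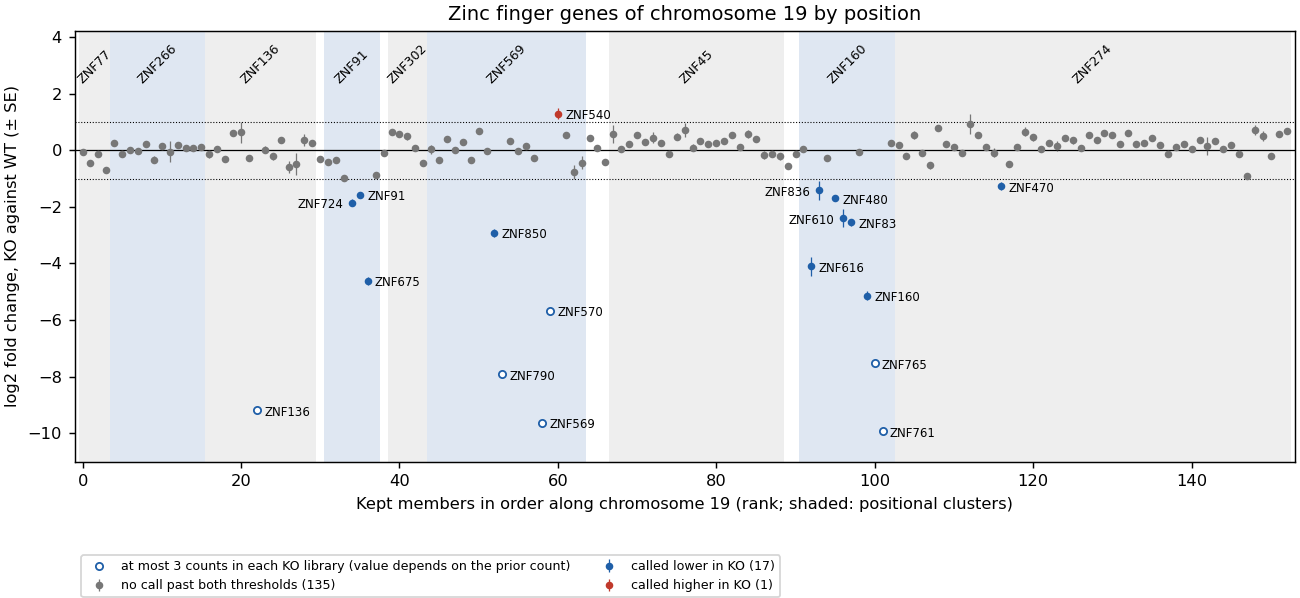
Log2 fold change of KO against WT (y axis, ± SE from edgeR) of the 153 kept members in their order along chromosome 19 (x axis, rank), with the 9 clusters shaded and named. Dotted lines mark log2 fold changes of 1 and -1; 16 of the 17 genes called lower fall in the ZNF136, ZNF91, ZNF569 and ZNF160 clusters and the other, ZNF470, in the ZNF274 cluster; open circles had at most 3 counts in each KO library.

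**Figure D2:**
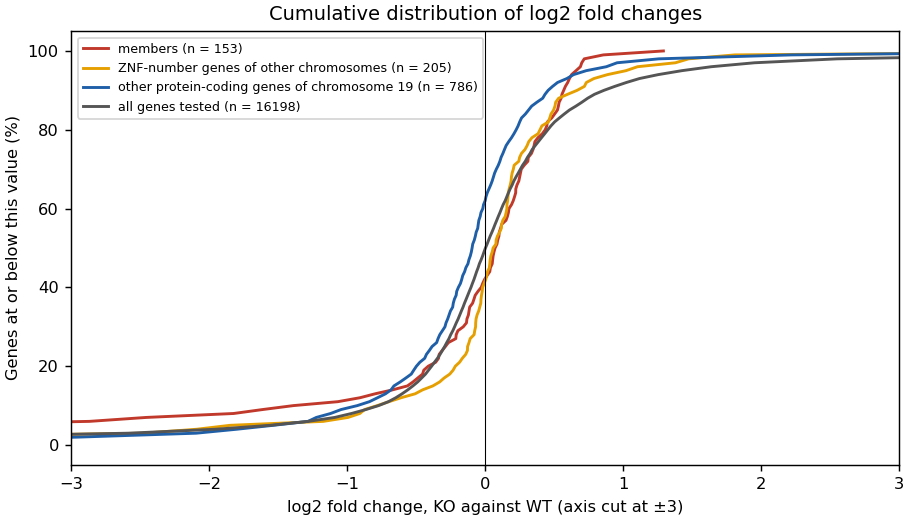
Cumulative share of genes (y axis, %) at or below each log2 fold change (x axis, shown from -3 to 3) for the 153 kept members, 205 ZNF genes of other chromosomes, 786 other protein-coding genes of chromosome 19 and all 16198 genes tested. The curve of the members ends at 1.29 on the right, and at -3 it lies above the other curves. Its left end includes members kept through the WT libraries alone, which had to be lower in KO.

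The largest ratios of WT to KO reads included those of ZNF761 and ZNF765, neighbours on the plus strand of chromosome 19 (GRCh38) in the ZNF160 cluster. ZNF761 (ENSG00000160336, 53431984 to 53461862) had 561, 569 and 198 counts in WT and 1, 0 and 0 in KO. ZNF765 (ENSG00000196417, 53389793 to 53430413) had 106, 107 and 38 counts in WT and 1, 0 and 0 in KO. Each was thus expressed in every WT library and nearly without reads in every KO library. The pooled WT level was 1344 times the KO level for ZNF761 (exact binomial 95% interval 241 to 53122) and 254 times for ZNF765 (45.2 to 10072). These intervals cover counting error only. The adjusted p of edgeR was 2.52e-25 for ZNF761 and 2.03e-16 for ZNF765. A gap of 1571 bases separates the 2 genes. The processed pseudogene TPM3P9 lies inside ZNF761 on the same strand, and its counts, 178, 195 and 78 in WT and 1, 2 and 0 in KO, were low in the same libraries.

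ZNF331, an imprinted gene and the next kept member after ZNF761, did not share this loss. It had 1081, 1211 and 435 counts in WT and 1096, 1314 and 867 in KO, with every KO library above every WT library once scaled. It rose from 39.7 ± 0.655 to 47.4 ± 2.40 CPM (SD, n = 3; log2 fold change 0.25 ± 0.06 SE, edgeR adjusted p = 0.000361). The RefSeq start of ZNF331 lies 89030 bases beyond that of ZNF761, and the starts of ZNF765 and ZNF761 lie 36835 bases apart. The 250 bases before each of the 3 RefSeq starts are shown because they span the border between genes without reads and a gene with them. The windows of ZNF765 and ZNF331 lie within the annotated spans of their genes, which begin earlier. CpG sites are in capitals, and the sequences are from RefSeq, build GRCh38.p14, 5′ to 3′ on the gene's strand.
ZNF765 (chr19:53394899-53395148, plus strand): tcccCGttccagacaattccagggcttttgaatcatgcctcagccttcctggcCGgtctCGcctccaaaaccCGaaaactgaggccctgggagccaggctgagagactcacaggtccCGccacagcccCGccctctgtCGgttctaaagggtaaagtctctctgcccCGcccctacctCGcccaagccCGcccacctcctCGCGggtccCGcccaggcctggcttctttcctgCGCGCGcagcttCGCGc
ZNF761 (chr19:53431734-53431983, plus strand): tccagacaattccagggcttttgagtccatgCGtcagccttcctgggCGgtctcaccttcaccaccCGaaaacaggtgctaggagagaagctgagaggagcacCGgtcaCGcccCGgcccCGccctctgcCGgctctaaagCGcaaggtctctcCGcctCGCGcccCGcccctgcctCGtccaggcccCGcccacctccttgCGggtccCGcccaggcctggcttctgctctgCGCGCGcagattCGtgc
ZNF331 (chr19:53520764-53521013, plus strand): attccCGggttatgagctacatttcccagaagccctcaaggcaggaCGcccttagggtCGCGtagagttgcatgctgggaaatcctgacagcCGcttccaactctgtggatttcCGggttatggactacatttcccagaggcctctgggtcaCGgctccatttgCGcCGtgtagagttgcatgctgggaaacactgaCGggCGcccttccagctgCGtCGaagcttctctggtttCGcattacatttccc

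The ZNF765 and ZNF761 promoters hold 18 and 21 CpG sites and were identical in 209 of 261 columns of a global alignment (80.1%). The ZNF331 promoter holds 14 CpG sites, and its identity to the ZNF761 promoter was 53.0%. The promoters of ZNF160 and ZNF761 were identical in 56.4% of columns. The transcripts of ZNF761 and ZNF765 themselves were mostly distinct: 2.62% and 7.24% of their 75-base windows, the length of a read, occurred in another annotated gene.

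ZNF569 and ZNF570 form a second pair, transcribed away from each other in the cluster named after the former. ZNF569 (ENSG00000196437, minus strand, 37411155 to 37469275) had 420, 474 and 174 counts in WT and 1, 0 and 0 in KO. ZNF570 (ENSG00000171827, plus strand, 37467585 to 37488652) had 45, 57 and 18 counts in WT and 2, 0 and 0 in KO. Both were expressed in WT and had at most 2 reads in any KO library. The WT level was 1081 times the KO level for ZNF569 (194 to 42730) and 60.7 times for ZNF570 (16.4 to 507), with edgeR adjusted p of 1.87e-24 and 8.55e-12. Their annotated spans overlap by 1691 bases on opposite strands, and whether reads were counted by strand is not given in the sources used here, so reads of the overlap cannot be assigned. The RefSeq starts lie 328 bases apart, and the windows of 250 bases before them share 173 bases, read on opposite strands. They are shown because 1 short interval precedes both RefSeq starts. The annotated spans above place the starts of both genes elsewhere, so that these windows lie within the span of ZNF569.
ZNF569 (chr19:37467445-37467694, minus strand): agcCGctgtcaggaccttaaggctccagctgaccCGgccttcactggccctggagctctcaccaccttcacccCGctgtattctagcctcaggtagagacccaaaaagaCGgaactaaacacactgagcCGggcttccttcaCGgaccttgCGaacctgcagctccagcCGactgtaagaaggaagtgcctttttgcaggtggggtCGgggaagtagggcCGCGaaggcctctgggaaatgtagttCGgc
ZNF570 (chr19:37467522-37467771, plus strand): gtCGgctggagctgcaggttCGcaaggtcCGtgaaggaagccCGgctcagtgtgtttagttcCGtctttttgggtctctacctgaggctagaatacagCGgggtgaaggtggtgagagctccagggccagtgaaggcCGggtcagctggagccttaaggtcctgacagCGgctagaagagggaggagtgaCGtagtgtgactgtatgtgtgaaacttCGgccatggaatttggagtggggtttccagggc

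These windows hold 12 and 10 CpG sites, fewer than the median of 19 in the promoters of this cluster. The genes on either side behaved differently. ZNF527, 18089 bases from ZNF569, had 203, 237 and 81 counts in WT and 159, 148 and 125 in KO, a log2 fold change of -0.28 ± 0.11 SE (edgeR adjusted p = 0.0333). ZNF540, 62754 bases beyond ZNF570, was the 1 member called higher. It had 29, 27 and 15 counts in WT and 65, 67 and 45 in KO, and all KO libraries lay above all WT libraries. Its level rose from 1.10 ± 0.228 to 2.55 ± 0.0813 CPM (SD, n = 3; log2 fold change 1.29 ± 0.20 SE, edgeR adjusted p = 1.64e-06). ZNF571, which overlaps ZNF540 on the other strand, also rose (0.53, edgeR adjusted p = 6.14e-05), so that reads of the overlap could belong to either. ZFP30, which overlaps the far end of ZNF540, fell by 0.25.

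ZNF136, which encodes a KRAB repressor, and ZNF790 had no reads in any KO library. ZNF136 (ENSG00000196646, plus strand, 12163064 to 12189871) had 90, 93 and 34 counts in WT. ZNF790 (ENSG00000197863, minus strand, 36817428 to 36850787) had 35, 42 and 13. Against the highest KO floor, 3 counts in 1 library or 0.169 CPM, ZNF136 was at least 18.7-fold lower and ZNF790 at least 7.61-fold lower, with edgeR adjusted p of 2.28e-15 and 4.19e-11. ZNF136 was the 1 kept member called lower in its cluster; ZNF442, tested but not kept, was also called lower (-5.05, a value that depends on the prior count). ZNF44, 34815 bases beyond it, had 216, 200 and 93 counts in WT and 166, 216 and 144 in KO, and its groups overlapped (0.02, edgeR adjusted p = 0.881). ZNF136 also differed in its promoter: it was the single one of 24 promoters in the cluster without the GC box GGGCGG on either strand, a fact chosen after its values were seen. The promoter of ZNF442 holds the GC box. The ZNF136 promoter is printed because it differs in this way.
ZNF136 (chr19:12162846-12163095, plus strand): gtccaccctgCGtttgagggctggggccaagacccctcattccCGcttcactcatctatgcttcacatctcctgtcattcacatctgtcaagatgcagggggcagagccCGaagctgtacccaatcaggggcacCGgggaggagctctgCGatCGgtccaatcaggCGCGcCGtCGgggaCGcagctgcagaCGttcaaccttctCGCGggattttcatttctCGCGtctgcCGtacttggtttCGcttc

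ZNF850, the kept member next to ZNF790 at a distance of 44603 bases, kept some reads. It had 319, 418 and 150 counts in WT and 37, 50 and 32 in KO, and fell from 13.0 ± 1.23 to 1.72 ± 0.188 CPM (SD, n = 3; log2 fold change -2.91 ± 0.13 SE, edgeR adjusted p = 6.10e-19). ZNF567, which overlaps it on the opposite strand, had 17.9 ± 0.555 CPM in WT, 17.6 ± 1.57 CPM in KO and overlapping groups. ZNF420, on the other side of ZNF790, rose by a log2 fold change of 0.34. The ZNF569 cluster thus held members without reads next to members that rose. ZNF790, ZNF569 and ZNF570 were kept through WT alone, as was ZNF136 in its own cluster. Over the 20 kept members, 4 were called lower and 1 higher, beside 7.73% and 8.3% of all genes. At the adjusted p 8 were lower and 6 higher, beside 32.0% and 31.9% of all genes. The median log2 fold change was -0.02.

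**Figure D3:**
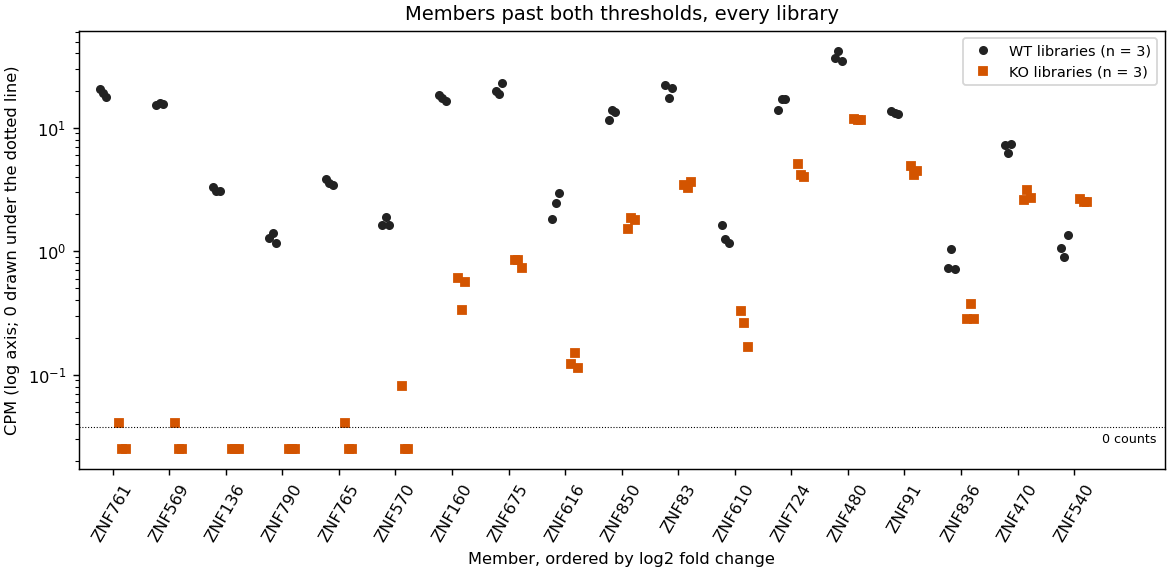
Level of the 18 members past both thresholds (x axis, ordered by log2 fold change) in every library (y axis, CPM on a log axis, 0 counts drawn under the dotted line), with WT libraries as circles and KO libraries as squares. WT and KO libraries do not overlap for any of them, and 6 genes have 0 counts in 2 or 3 KO libraries.

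The ZNF160 cluster (51571283 to 53580269) had the most called genes. It held 39 listed members, of which 12 were kept. Of these 12, 8 were called lower, 9 were lower at the adjusted p, and 1, ZNF331, was higher, beside 7.73% called lower and 32.0% lower of all genes. Of the 8, ZNF616, ZNF610, ZNF765 and ZNF761 were kept through WT alone and had to be lower in KO. The count of 8 and the median below thus partly reflect the filter. Of all genes not kept through WT alone, 6.01% were called lower. The median log2 fold change was -2.05, and the summed level fell from 191 ± 6.19 to 108 ± 2.39 CPM (SD, n = 3), without overlap. ZNF160 itself, a KRAB gene on the minus strand, had 505, 522 and 182 counts in WT and 15, 9 and 10 in KO (log2 fold change -5.14 ± 0.16 SE, edgeR adjusted p = 1.24e-23). ZNF616 had 50, 74 and 33 counts in WT and 3, 4 and 2 in KO (-4.10 ± 0.34 SE, edgeR adjusted p = 3.87e-12). In both genes every KO library was far below every WT library, and both kept a few reads in each.

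The other called genes of this cluster fell less. ZNF83, ZNF610, ZNF480 and ZNF836 are named after their values were seen. ZNF83 had 604, 526 and 234 counts in WT and 84, 88 and 65 in KO (-2.55). ZNF480 had 1001, 1252 and 384 counts in WT and 292, 314 and 206 in KO (-1.70). ZNF610 (-2.41) and ZNF836 (-1.42) were low in both groups, with at most 45 counts in any WT library. Among these, ZNF83 overlaps an unnamed protein-coding gene on its strand, which fell with it (-1.90), and ZNF836 overlaps PPP2R1A on the other strand. Genes close to them in the same cluster changed less: ZNF611, 12254 bases from ZNF83, had a log2 fold change of -0.07 (edgeR adjusted p = 0.589). ZNF766, 1123 bases before ZNF480, fell from 28.2 ± 1.09 to 23.2 ± 0.364 CPM (-0.29). ZNF175 at the start of the cluster had overlapping groups (0.06). The fall was therefore not uniform over the cluster.

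In the ZNF91 cluster (19668796 to 24129968) all 7 kept members fell, and for each of them the WT and KO libraries did not overlap. Of all genes tested, 33.5% were separated in this direction. These 7 were what the filter kept of 37 listed members. The summed level of the 7 fell from 115 ± 5.55 to 50.6 ± 2.06 CPM (SD, n = 3), and the median log2 fold change was -0.99. ZNF91, whose protein represses SVA and L1 retrotransposons, had 377, 395 and 144 counts in WT and 120, 111 and 79 in KO (log2 fold change -1.58 ± 0.11 SE, edgeR adjusted p = 1.28e-14). ZNF675 had 549, 567 and 254 counts in WT and 21, 23 and 13 in KO (-4.61 ± 0.14 SE, edgeR adjusted p = 6.06e-24). ZNF675 fell most and is the neighbour of ZNF91 at a distance of 130160 bases.

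ZNF724, named after its values were seen, had 383, 511 and 190 counts in WT and 124, 111 and 71 in KO (-1.85). It shares 42.8% of its 75-base windows with another annotated gene or genes, so its own level is uncertain. The remaining 4 members of this cluster fell by less than the threshold of 1. ZNF708 had a log2 fold change of -0.99, ZNF254 of -0.89, ZNF101 of -0.42 and ZNF14 of -0.34. The smallest decreases were thus those of ZNF101 and ZNF14, at the start of the cluster. No other protein-coding gene inside this cluster was tested.

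**Figure D4:**
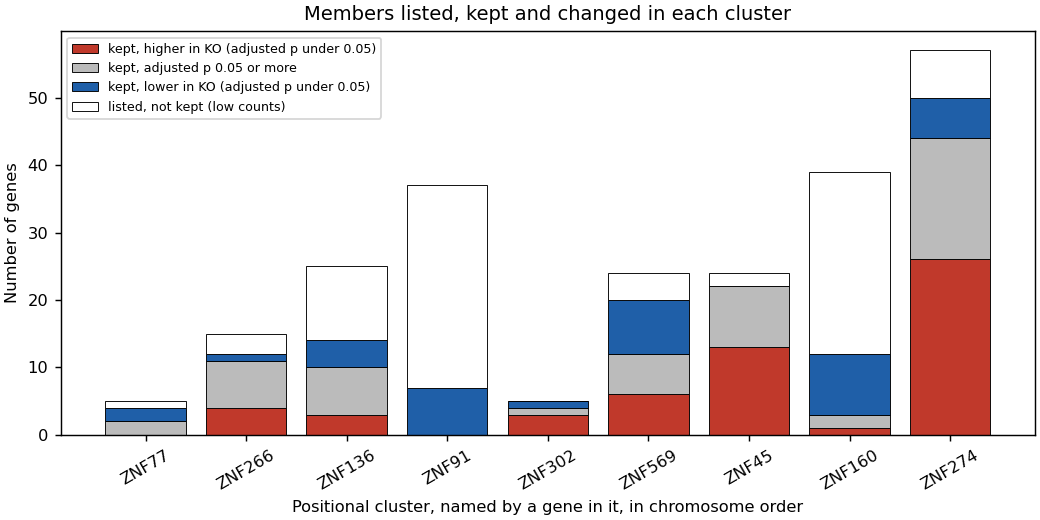
Number of listed members (y axis) in each of the 9 clusters in chromosome order (x axis), divided into kept members that were higher, lower or neither at an edgeR adjusted p under 0.05 and members not kept for low counts. The ZNF91 and ZNF160 clusters kept 7 of 37 and 12 of 39 members, and the ZNF274 cluster kept 50 of 57.

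Small increases were most frequent in the ZNF45, ZNF302 and ZNF274 clusters. In the ZNF45 cluster 13 of 22 kept members were higher at the adjusted p and the other 9 did not pass, beside 31.9% of all genes higher, and the median was 0.28. The summed level rose from 266 ± 6.67 to 317 ± 5.56 CPM (SD, n = 3). ZNF223 had the largest value (0.71 ± 0.25 SE, edgeR adjusted p = 0.0147), from 19, 25 and 8 counts in WT to 31, 33 and 22 in KO, but 43.2% of its windows occur in other genes. ZNF224, a KRAB repressor, rose from 30.9 ± 1.10 to 38.4 ± 2.49 CPM (0.31). ZNF296 had the lowest value and did not pass (-0.21, edgeR adjusted p = 0.127). The 19 other protein-coding genes tested inside this cluster went the other way: 2 were higher and 12 lower at the adjusted p, with a median of -0.29. Of all genes, 32.0% were lower.

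The 5 members of the ZNF302 cluster were all kept. At the adjusted p 3 were higher and 1 lower, beside 31.9% and 32.0% of all genes. ZNF302 had 1127, 1164 and 458 counts in WT and 1496, 1807 and 1114 in KO, and rose from 40.4 ± 1.35 to 63.5 ± 3.23 CPM (SD, n = 3; log2 fold change 0.66 ± 0.06 SE, edgeR adjusted p = 9.27e-12). ZNF792 at the other end of the cluster fell (-0.45, edgeR adjusted p = 0.000521). The cluster's sum rose from 82.9 ± 2.15 to 113 ± 1.58 CPM, and ZNF302 carried most of it.

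The ZNF274 cluster, at the end of the long arm, is the largest, with 57 listed and 50 kept members. Of the 50, 26 were higher and 6 lower at the adjusted p, beside 31.9% and 32.0% of all genes, and the median was 0.21. The sum rose from 728 ± 6.24 to 815 ± 9.95 CPM (SD, n = 3), and its libraries did not overlap. ZNF582 had the largest value (0.92 ± 0.35 SE, edgeR adjusted p = 0.0207) from few reads, 10, 13 and 2 in WT and 15, 19 and 14 in KO. ZNF470 was the 1 member called lower, with 197, 187 and 82 counts in WT and 64, 84 and 48 in KO (-1.28 ± 0.14 SE, edgeR adjusted p = 8.31e-10). Its neighbour ZNF71, 6389 bases away, fell less (-0.49), and ZNF471 on the other side had overlapping groups (-0.08). ZNF8 fell from 25.1 ± 2.55 to 13.6 ± 0.758 CPM (-0.92).

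The remaining clusters changed less. In the ZNF266 cluster 4 of 12 kept members were higher, about the 31.9% of all genes, and 1 was lower, from ZNF699 at -0.34 (edgeR adjusted p = 0.0181) to ZNF557 at 0.24 (edgeR adjusted p = 0.00127), and the sum rose from 430 ± 2.77 to 468 ± 8.26 CPM. In the ZNF77 cluster 2 of 4 were lower. They included ZNF77, with 288, 343 and 130 counts in WT and 171, 180 and 123 in KO (-0.70 ± 0.10 SE, edgeR adjusted p = 2.49e-07), whereas ZNF554 had overlapping groups (-0.06, edgeR adjusted p = 0.649). In the ZNF136 cluster, beside ZNF136, 3 of the 14 were higher and 3 lower at the adjusted p. The highest value there, 0.63 for ZNF491, rested on 2 to 13 counts per library and did not pass (edgeR adjusted p = 0.148). Of 7 kept members outside the clusters, 1 was higher and 3 were lower. All these counts stand beside 31.9% higher and 32.0% lower of all genes at the adjusted p.

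Some members have known functions. The list of these was written from general knowledge, and 7 of its 15 genes were tested. At the adjusted p 3 were higher and 2 lower, beside 31.9% and 32.0% of all genes. ZNF274, which binds the 3′ ends of other zinc finger genes, had 1179, 1305 and 517 counts in WT and 955, 1055 and 766 in KO. Its groups overlapped (-0.13 ± 0.06 SE, edgeR adjusted p = 0.0535). ZNF417 and ZNF587, close relatives that repress HERV-K elements, had log2 fold changes of 0.36 (edgeR adjusted p = 0.00701) and 0.05 (edgeR adjusted p = 0.483). They share 28.6% and 35.4% of their windows with other genes, so reads could be split between them. ZNF441 rose by 0.60 (edgeR adjusted p = 8.16e-06) and ZNF382 fell by 0.34 on the log2 scale (edgeR adjusted p = 0.00124). The other 8, ZNF93, ZNF208, ZNF534, ZNF568, ZNF649, ZNF808, ZNF536 and ZNF541, had at most 3 counts in every library. ZNF93, another repressor of L1 elements, was thus at or below the floor in both groups.

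Zinc finger genes were expressed at low levels. The median WT level of the kept members was 11.8 CPM, beside 20.4 CPM for all genes tested, and 66 of the 153 were under 10 CPM. Per kilobase of exon, ZNF146 had the highest level, 48.8 CPM per kb in WT and 38.0 in KO. ZNF146 encodes a protein of zinc fingers with no KRAB domain, and it fell (log2 fold change -0.36 ± 0.05 SE, edgeR adjusted p = 1.30e-07). It was followed per kilobase by ZNF581, at 19.3 in WT and 22.4 in KO, and ZNF121, at 17.8 and 20.1. The genes of highest level were thus not those that lost their reads.

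The 87 listed members that were not kept had few reads in either group. Of these, 31 had 0 counts in every library and 76 had at most 3 in every library. In the ZNF91 cluster no member outside the 7 had more than 4 counts in any library. 3 of the not-kept genes, named after their values were seen, had fewer reads in KO than in WT. ZNF442 had 40, 30 and 8 counts in WT and 0, 2 and 0 in KO. ZNF844 had 10, 11 and 8 and then 0, 0 and 0. ZNF880 kept more of its reads, with 22, 19 and 8 counts in WT and 7, 2 and 1 in KO. Like ZNF442, ZNF880 was tested and called lower (log2 fold change -2.27). ZNF442 and ZNF844 lie in the ZNF136 cluster, and ZNF880 in the ZNF160 cluster. For ZNF442 the WT level was 39.5 times the KO level (10.6 to 332), and ZNF844 was at least 2.87-fold lower against the same floor. No member was kept through the KO libraries alone.

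The pattern of the members was set beside 2 other groups of genes. Of 205 tested ZNF genes on other chromosomes, 15 were called lower (7.32%) and 11 higher (5.37%), and their median was 0.06. At the adjusted p 73 of them (35.6%) were higher and 44 (21.5%) lower, beside 37.3% and 26.8% of the kept members. A larger share higher than lower was thus not particular to the members. Of 786 other protein-coding genes of chromosome 19, 76 were called lower (9.67%) and 22 higher (2.80%), with a median of -0.10. Inside the clusters, 78 such genes had a median of -0.14. At the adjusted p 29 (37.2%) were lower and 13 (16.7%) higher, beside 32.0% and 31.9% of all genes. The median of the chromosome's other genes was the 5th lowest of 23 chromosomes, whose medians ran from -0.15 to 0.25. The members thus had fewer calls in the higher direction than the ZNF genes elsewhere, but the difference between these groups was not tested. Neighbouring kept members of a cluster had related values (Spearman 0.36 over 137 pairs, given as a description, since neighbours share genes between pairs, sequence and low depth).

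Promoter sequence was compared over the 210 listed members with a RefSeq promoter, as a description. The median number of CpG sites in the 250 bases before the start was 17 for kept members and 13 for those not kept, beside 11 for all 27305 promoters. The 15 called-lower members with a promoter had a median of 16 CpG sites, and the 123 other kept members 17, so CpG number did not set them apart. Clusters differed more: the median was 8 in the ZNF91 cluster, 12 in the ZNF136 cluster, 18.5 in the ZNF160 and ZNF274 clusters and 21.5 in the ZNF302 cluster. In the ZNF91 cluster the kept and the not-kept promoters had medians of 7 and 8.

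Exact letters of 6 motifs were searched on both strands of these 250 bases. The GC box GGGCGG was in 9 of the 15 called-lower promoters, 77 of the 123 other kept promoters (62.6%) and 42.3% of all promoters. The ETS core CCGGAAG was in 2 of the 15 (13.3%), 37 of the 123 (30.1%) and 8.82% of all promoters. In the ZNF91 cluster 19 of 29 promoters held the ETS core, and in the ZNF136 cluster 1 of 24. The YY1 core ATGGCGG, which can overlap a GC box by at most 2 bases, was in 8 of 138 kept promoters. TATAAA was in 3 of them, TGACGTCA in 5 and the NRF1 core GCGCATGC in 5. Among the called-lower promoters TATAAA was in 1 and the other 3 of these 4 motifs were in 0 of 15. These counts describe letters and do not show binding.

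Near-identical copies can share reads, and how reads that map to several places were counted is not given in the sources used here. Of the kept members, 40 had more than 10% of their 75-base windows in another annotated gene, on either strand. Some of this sharing is with a gene annotated at the same place and not with a copy. An example is ZNF529 with its antisense gene ZNF529-AS1 (18.3%). Among the 17 called lower, ZNF724 and ZNF836 (10.3%) were above that value, and the median was 0.172%, beside 2.62% for all kept members. ZNF136, ZNF160, ZNF790, ZNF480, ZNF610 and ZNF470 shared none. The members with the largest losses were thus largely made of sequence found in no other annotated gene.

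The genes through which KRAB zinc finger proteins act were measured from a list of 28 cofactors, all of which were tested. At the adjusted p 5 were higher, 18 lower and 5 neither, beside 31.9% higher and 32.0% lower of all genes, and the median was -0.18. The 1 cofactor past both thresholds was ATF7IP, a partner of SETDB1, which rose from 116 ± 9.01 to 235 ± 15.9 CPM (SD, n = 3; log2 fold change 1.02 ± 0.06 SE, edgeR adjusted p = 8.53e-17). TRIM28, the KRAB corepressor, had 519 ± 22.0 CPM (WT) against 487 ± 28.1 CPM (KO) and did not pass (-0.09 ± 0.05 SE, edgeR adjusted p = 0.103). SETDB1, the histone methyltransferase, rose by a log2 fold change of 0.33 (edgeR adjusted p = 1.05e-06). The HP1 genes fell: CBX5 by 0.56 on the log2 scale (edgeR adjusted p = 1.62e-10), CBX1 by 0.25 (edgeR adjusted p = 2.72e-05) and CBX3 by 0.19 (edgeR adjusted p = 0.000569). Of a list of 24 other C2H2 genes on chromosome 19, such as ZFP and ZSCAN genes, 23 were found by symbol and 13 were tested. At the adjusted p 5 of these were higher and 4 lower, beside the same shares of all genes. ZNF585B was called higher (1.19 ± 0.26 SE, edgeR adjusted p = 0.000188), from 0.647 ± 0.114 to 1.55 ± 0.322 CPM, and 9 of the others, PEG3 and ZIM2 among them, had at most 3 counts in every library.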

How the data were processed

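The 6 RNA-seq libraries, 3 from A2780 WT and 3 from the CDK12 KO clone, were grouped by their labelled genotype. Nothing in the labels says that the libraries came from separate cultures, so p-values measure only the spread between these libraries, which may be technical. The authors deposited raw counts per Ensembl gene from stranded single-end reads, after FastQC, STAR alignment to GRCh38 and HTSeq-Count; versions, annotation release, strand setting and the treatment of multimapped reads are not given in the sources used here. Of the 60483 listed identifiers, 56321 (93.1%) were found in GENCODE release 44, as were 15989 of the 16198 tested. Positions, exon lengths and the choice of chromosome 19 members come from that annotation. The members and gene lists were chosen with earlier results of these data known.

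The test was edgeR's quasi-likelihood test (edgeR 4.0.16, R 4.3.3), two-sided, after filterByExpr (minimum count 10, minimum total count 15) and TMM scaling. P-values were adjusted by Benjamini-Hochberg over 16198 genes. Calls needed an adjusted p under 0.05 together with a log2 fold change beyond 1 or -1. TMM-scaled totals gave the CPM. A fold against KO libraries all at 0 is a bound from 3 counts in 1 library, and where the KO libraries held 1 to 3 counts in all a ratio with an exact binomial interval is given; intervals and floors cover counting error only. In an exact permutation test 3 libraries against 3 cannot go below p = 0.1, the value of 103 kept members. Named members are the 10 largest increases and decreases among members past both thresholds whose groups did not overlap, the genes of the list with known functions, the highest and lowest member of each cluster, and cofactors and other C2H2 genes past both thresholds with TRIM28, SETDB1 and the HP1 genes; other named genes serve as neighbours or examples.

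The study's own tool, voom/limma (limma 3.58.1), was an alternative, as were DESeq2 1.42.0, other scalings, filters and thresholds, other cluster distances, and the omission of each library. The tests were checked on simulated counts. Promoters are the first RefSeq start of a gene (GRCh38.p14). Identities come from a global alignment scored 1 for a match and -1 for a mismatch or gap. Shared windows are 75-base stretches of exon sequence also found, on either strand, in other GENCODE transcripts. Python 3.11.15 with numpy 2.4.6, pandas 2.3.3, scipy 1.17.1 and matplotlib 3.10.9 was used for these steps.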

Additional observations from a re-analysis of the deposited data

How the results depend on the processing

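The median of the kept members stayed above 0 under each alternative run. The median of 0.07 was 0.10 with upper-quartile scaling, under which the median of all genes moved as well, from 0.0004 to 0.0284. The members' median was 0.0353 with no filter beyond 1 count in total (209 members). With at least 10 counts in every library (136 members) it was 0.12. When each library was left out in turn it was 0.0602 to 0.0902. Members called lower numbered 21 of 209 with no filter beyond 1 count in total, and 17 to 18 with each library left out. They numbered 7 with at least 10 counts in every library, where genes without KO reads cannot enter. In a test against a fold of 2, 0 members were called higher, since ZNF540 lost its call, while 15 were called lower without ZNF470 and ZNF836. Leaving out WT replicate 2 or CDK12 KO replicate 1 gave 2 members called higher, with ZNF582 added, and the range over the left-out libraries was 1 to 2. As alternatives chosen after seeing the data, leaving out the 8 members kept through WT alone gave 9 called lower of 145 and a median of 0.10, and leaving out the 40 members with over 10% shared windows gave a median of 0.0396 over 113. Under the 11 alternatives in which 37 named genes were followed one by one, which leave out the filters and the test against a fold, none changed sign, 12 comparisons lost significance and 6 gained it. The gains were those of ZNF274, TRIM28 and ZNF296, with edgeR adjusted p down to 0.0230, 0.0178 and 0.0217. The losses were those of ZNF699, ZNF582, ZNF223, ZNF14 and ZNF417, the last with a log2 fold change of 0.16 and edgeR adjusted p = 0.185 without WT replicate 1. The cause was not tested. With 0.5 and 2 Mb in place of 1 Mb the members formed 10 and 6 clusters in place of 9. No paired analysis was possible because the labels number the libraries 1 to 6 and tie no WT library to a KO library. Depth limits genes near the floor, where the fitted log2 fold change depends on the prior count.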
